A study of Apis mellifera with 9 samples.

Results

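The ovaries of egg-laying honeybee queens were compared with those of queen-less workers, whose ovaries had also become active, by the places where the histone mark H3K27me3 was called in each. The 4 ChIP-seq samples were taken by their labels from the 9 samples of the series and were 2 queen ovaries and 2 queen-less worker ovaries, each with its own list of broad peaks. The queens (Apis mellifera) were about 12 months old and headed colonies, and carry no ovary score in the labels. The queen-less workers came from nucleus boxes without a queen, were dissected 2 to 4 weeks after these were set up, and had ovaries of score 3. All samples were female ovary tissue with no drug treatment or genetic change named in the labels, and the DNA of several immunoprecipitations went into each library. The rest of the series was 2 ovary samples of score 0 from queen-right workers, which lived with a laying queen, used here only as a separate readout, and 3 inputs that were not used here. The labels give no age for the workers, and caste, age and the state of the colony cannot be told apart. They name an input for each group, without saying which peak list it served. If it served both lists of its group, its effect cannot be told apart from caste. The tissue was bulk, so a change in the mark within cells and a change in the mix of follicle, nurse and germline cells cannot be told apart either.

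H3K27me3 is the trimethyl mark on a lysine in the tail of histone H3 that the Polycomb repressive complex PRC2 writes through its catalytic subunit Enhancer of zeste. In animals it spreads over broad domains of silent developmental genes and is also found as small isolated patches. In the honeybee a queen and a worker can arise from eggs of the same kind, and the pheromone of a laying queen keeps the ovaries of workers inactive. Some workers lay eggs once it is lost. The comparison of queens with queen-less workers therefore sets caste against caste while the ovaries of both are active. The lists name scaffolds, not genes, and hold no expression values, so neither the tissue label nor the genes under the peaks could be examined here.

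The 4 lists were unequal in a way that ran within the groups. Peaks covered 63.1 Mb in queen 1 and 53.5 Mb in queen 2, against 59.2 Mb in queen-less worker 1 and 78.0 Mb in queen-less worker 2, on 1834 scaffolds that span 220.2 Mb up to their last peak. The peak score is the value that the authors' peak caller gave each peak, and its median was 39 and 48 in the queens, against 24 and 73 in the queen-less workers. Queen-less worker 2 stood apart from the other 3 lists on both measures, and the read depth behind them is unknown. For that reason most counts below are set beside the same count in the 2 crossed arrangements of the same 4 lists, each of which puts 1 queen with 1 queen-less worker. The first crossed arrangement set queen 1 and queen-less worker 1 against queen 2 and queen-less worker 2. The second set queen 1 and queen-less worker 2, the lists that covered the most, against queen 2 and queen-less worker 1, the lists that covered the least. With 2 lists against 2 the smallest two-sided p of an exact permutation test is 0.333, so none of the tests below could pass 0.05.

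By peak width, the difference between the castes was smallest in Mb under narrow peaks, where the groups did not overlap, and largest under wide peaks, where they did. Peaks under 300 bases covered 2.70 and 2.89 Mb in queens, against 2.62 and 2.60 Mb in queen-less workers, a difference of 0.184 Mb for a pooled SD of 0.0964 Mb (exact permutation p = 0.333, n = 2 each). Both queens lay above both queen-less workers, by a margin that was narrow between queen 1 and queen-less worker 1. As a share of each list's covered bases the groups overlapped, at 4.28% and 5.40% in queens, against 4.43% and 3.33% in queen-less workers. Peaks of 300 bases to under 1 kb covered 11.9 and 11.5 Mb in queens, against 11.5 and 11.0 Mb in queen-less workers (difference 0.468 Mb, pooled SD 0.314 Mb, exact permutation p = 0.333). There were 21282 and 20771 such peaks in queens, against 20258 and 20098 in queen-less workers. Their share of each list's covered bases overlapped, at 18.9% and 21.6% in queens, against 19.5% and 14.1% in queen-less workers. Their share of each list's peaks did not, at 41.8% and 42.3% in queens, against 41.6% and 39.7% in queen-less workers.

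In the 1 kb to under 5 kb class the groups overlapped, with 31.1 and 27.0 Mb in queens, against 29.3 and 33.3 Mb in queen-less workers. Peaks of 5 kb and over covered 17.4 and 12.1 Mb in queens, against 15.7 and 31.0 Mb in queen-less workers. The mean was 8.65 Mb lower in queens, but queen 1 lay above queen-less worker 1, and the pooled SD was 8.08 Mb (exact permutation p = 0.667). Leaving out queen-less worker 2 brought the difference to -1.01 Mb. The widest domains repeated this order, since peaks of 10 kb and over covered 7.67 and 4.70 Mb in queens, against 6.88 and 17.7 Mb in queen-less workers.

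**Figure D1:**
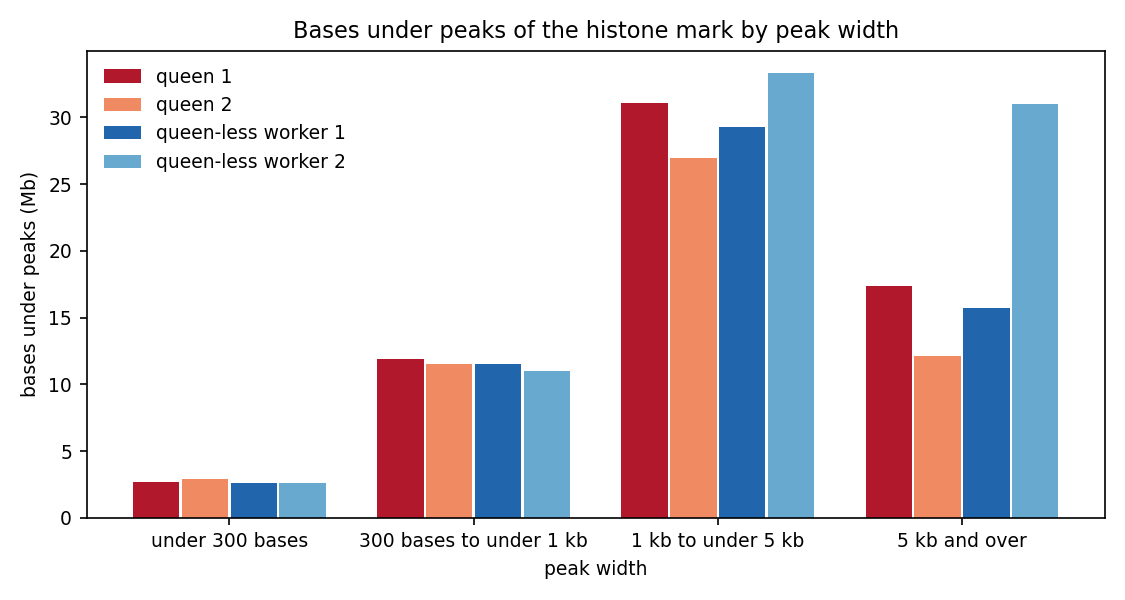
Bases under H3K27me3 peaks (Mb, from 0) by peak width class. Each bar is 1 list, queens left of queen-less workers. The queens' bars are level with or just above those of queen-less workers in the 2 narrow classes, and in the class of 5 kb and over 1 queen-less worker list, at 31.0 Mb, stands above the other 3, at 12.1 to 17.4 Mb.

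A peak was counted as found again when the other list covered at least 50% of its bases. Wide peaks were found again almost whatever the caste: of peaks of 5 kb and over, a mean of 97.7% were found in a list of the other caste (89.9% to 100% over 8 ordered pairs), and 98.1% in the other list of the same caste (93.6% to 100% over 4). In narrow peaks the lists parted within castes as much as between them. Of peaks under 300 bases a mean of 66.6% were found in the other caste (32.2% to 94.8%), and 68.5% in the same caste (33.7% to 88.9%). The direction of the look-up moved this share more than caste did. Queen-less worker 2 held 94.8% of the narrow peaks of queen 2, while queen 2 held 32.2% of the narrow peaks of queen-less worker 2. For 300 bases to under 1 kb the means were 76.8% between castes and 77.3% within them, and for 1 kb to under 5 kb they were 82.3% and 83.8%.

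New regions were counted after the peaks of the 4 lists were merged where they overlapped by at least 1 base, which gave 52476 regions. Of these, 29917 (57.0%) were called in all 4 lists, with a median width of 1343 bases. Both queens and neither queen-less worker had a call in 238 regions, 0.454% of all. Both queen-less workers and neither queen had a call in 1755, or 3.34%. The sum of 1993 lay between those of the crossed arrangements, which gave 1427 (508 and 919) and 2405 (2299 and 106), so that as deposited the castes did not give the highest sum (exact permutation p = 0.667). At equal list lengths they did, with 2152 regions, against 1464 and 1976. With a minimum score of 20 the castes gave the lowest sum, 1446, against 1678 and 2831. The castes lay between the crossed sums after peaks closer than 1 kb were joined (1216, against 970 and 1388). The same held with peaks of at least 500 bases (1571, against 1096 and 1857). A larger number, 6034 regions, was called in queen-less worker 2 alone. The excess in queen-less workers did not hold at equal coverage: with each list cut to its top-scoring peaks up to the 53.5 Mb of queen 2, queens alone held 3007 regions and queen-less workers alone 166. The sum for the castes was then 3173, against 866 and 3208 in the crossed arrangements. The lists then held 34613 and 49064 peaks in queens, against 38387 and 20943 in queen-less workers.

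Regions called in 1 caste were small. Their median width was 341 bases in queens alone, against 388 bases in queen-less workers alone. The crossed sets had medians of 338 to 578.5 bases, so small size was not particular to caste. Width is that of the merged region, so regions without a peak of the other pair tend to be narrow by construction. Of regions under 300 bases, 105 (1.03%) were queens' alone and 597 (5.85%) queen-less workers' alone. Of regions of 1 kb to under 5 kb, 7 (0.0403%) were queens' alone, against 188 (1.08%) in queen-less workers alone. Among 3294 regions of 5 kb and over, 0 were called in queens alone or in any crossed set, against 1 in queen-less workers alone. Apart from that region, described below, every wide region called in both lists of a caste therefore had a call in at least 1 list of the other.

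The calls of 1 caste were also weak ones. The lower of the scores in the pair, ranked within its own list, was at a median percentile of 6.97 for regions of queens alone and 13.3 for regions of queen-less workers alone, against 42.4 for regions called in all 4 lists. They lay near shared regions: the median distance to the nearest region called in all 4 lists was 2583.5 bases for queens alone and 1730 bases for queen-less workers alone, and 1575 bases between neighbouring shared regions. Of regions of queens alone 67.2% were within 5 kb of a shared region, against 79.9% of those of queen-less workers alone. The 4 crossed sets of regions had median percentiles of 5.27 to 11.9 and median distances of 1522 to 3660 bases, which takes in both of the caste sets in distance.

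Most of the bases that differed by caste lay inside or beside domains that both castes had. A stretch was the run of bases covered in both lists of one caste and in neither of the other. It was called new where its merged region held no peak of the other caste, an extension where that caste had peaks on one side of it, and a gap where that caste had peaks on both sides. Stretches of queens alone summed to 0.524 Mb, of which 0.0608 Mb (11.6%) were new, 0.291 Mb (55.5%) extension and 0.173 Mb (32.9%) gap. Stretches of queen-less workers alone summed to 4.44 Mb, of which 0.463 Mb (10.4%) were new, 1.83 Mb (41.1%) extension and 2.15 Mb (48.4%) gap. As deposited, new regions were the smallest part in either caste, extension led in queens and filled gaps led in queen-less workers. New regions were also the smallest part in every crossed pair. The second crossed arrangement showed the same order as the castes. Queen 2 and queen-less worker 1 had 9.76% new, 53.1% extension and 37.1% gap. Queen 1 and queen-less worker 2 had 12.3% new, 42.6% extension and 45.1% gap. In the first crossed arrangement extension led in both pairs. The order in queens alone turned at equal coverage, with 1160905 new, 884655 extension and 272907 gap bases. With peaks of at least 500 bases gaps were the smallest part in queens alone, at 82954 bases, and extension led in queen-less workers alone, at 2022017 bases, against 1399030 bases of gap.

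As deposited, the share of gap bases was higher in pairs that held queen-less worker 2, and whether it went with that list or with caste was not tested. The share was 42.2% to 48.4% in the 3 pairs that held that list, highest in the queen-less workers, and 29.4% to 37.1% in the 3 pairs that did not. At equal coverage there were 272907 gap bases in queens alone and 1442022 in queen-less workers alone. In all, 4.97 Mb differed between the castes, 5.70% of the 87.1 Mb under any of the 4 lists, against 2.61 Mb and 5.04 Mb in the crossed arrangements (exact permutation p = 0.667). At equal coverage the 2 directions were close, with 2.32 Mb in queens alone and 2.45 Mb in queen-less workers alone, and their sum of 4.77 Mb was above the crossed sums of 2.69 and 4.22 Mb. At equal list lengths the castes also gave the highest sum, 5.02 Mb, against 2.59 and 4.80 Mb. In other settings the second crossed arrangement gave the highest sum. With a minimum score of 20 the castes gave 3.95 Mb, against 2.60 and 5.72 Mb. After peaks closer than 1 kb were joined the castes gave 5.03 Mb, against 2.67 and 5.59 Mb. With peaks of at least 500 bases the castes gave 4.91 Mb, against 2.44 and 5.05 Mb.

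**Figure D2:**
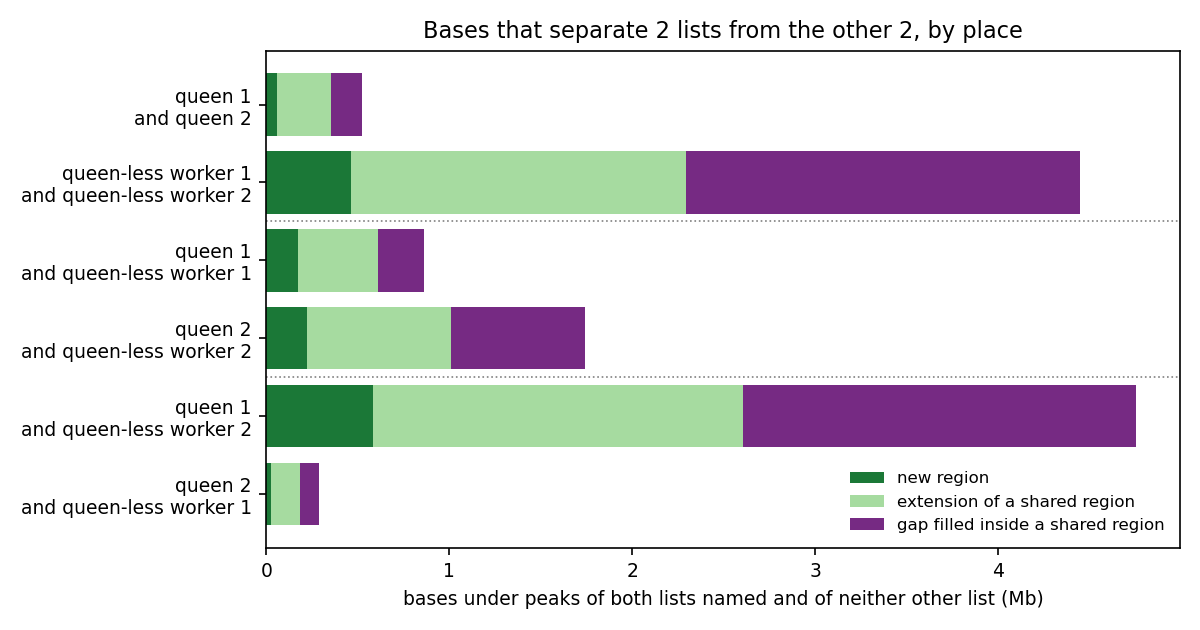
Bases (Mb, from 0) covered in both lists of a pair and in neither of the other pair, stacked by place (new region, extension, gap), with queens above queen-less workers at the top and the 2 crossed arrangements under them. Queens alone held 0.524 Mb and queen-less workers alone 4.44 Mb, and the second crossed arrangement was as lopsided, at 4.75 Mb and 0.291 Mb.

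Lists compared singly showed the same scale of difference within castes. Queen 1 covered 14.1 Mb that queen 2 did not, and queen 2 covered 4.54 Mb that queen 1 did not. Queen-less worker 2 covered 23.9 Mb that queen-less worker 1 did not, and 5.08 Mb lay the other way. Across castes the values ran between 2.24 Mb, in queen 2 and not in queen-less worker 2, and 26.7 Mb, in queen-less worker 2 and not in queen 2. New regions took 17.1% to 30.6% of these bases over the 12 ordered pairs, so in single lists too most of what differed adjoined a shared domain.

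Most stretches were shorter than the 147 bases of the narrowest peak, that is, small disagreements of edges: 78.3% of those in queens alone and 71.0% in queen-less workers alone. The castes differed from the crossed arrangements at the other end of the range. Stretches of 1 kb and over numbered 5 in queens alone and 290 in queen-less workers alone, 295 in all with 0.361 Mb, against 91 with 0.114 Mb and 228 with 0.271 Mb in the crossed arrangements. Under 147 bases the castes gave 23053 stretches, fewer than the 31836 of the second crossed arrangement. The long stretches were mostly filled gaps, which were 190 of the 290 in queen-less workers alone and 3 of the 5 in queens alone. Gaps were 12 of 38 and 29 of 53 in the first crossed arrangement, and 139 of 219 and 6 of 9 in the second. The order of the castes and crossed arrangements at 1 kb and over was looked at after the stretch lengths had been seen. The order of the sums held at equal coverage (565 for the castes, against 228 and 466) and at equal list lengths (335, against 102 and 231). The direction did not hold at equal coverage, with 325 in queens alone and 240 in queen-less workers alone. The order of the sums turned round with a minimum score of 20 (353, against 167 and 555). It also did after peaks closer than 1 kb were joined (1938, against 830 and 2063), and with peaks of at least 500 bases alone (927, against 333 and 956).

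**Figure D3:**
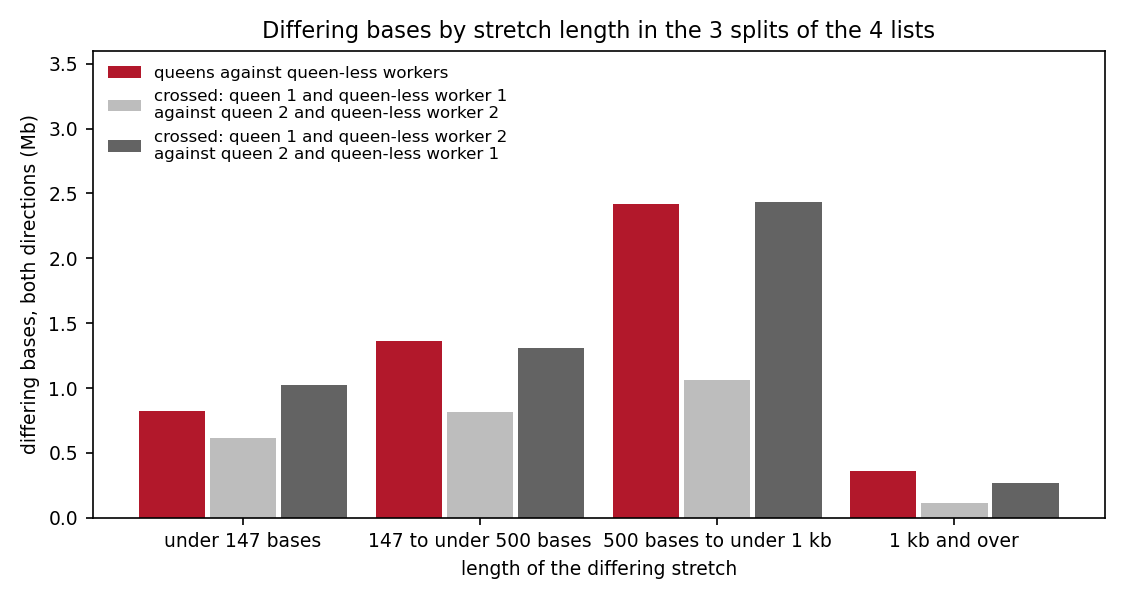
Differing bases (Mb, from 0, both directions summed) by length of the stretch, with 1 bar for the castes and 1 for each crossed arrangement. The castes lie below the second crossed arrangement under 147 bases, at 0.824 and 1.03 Mb, and above both at 1 kb and over, at 0.361 Mb against 0.114 and 0.271 Mb.

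The outer edges of shared domains gave the same picture on a fixed set of places. The 29917 regions called in all 4 lists have 59834 outer edges. Both queens reached farther out than both queen-less workers at 3105 edges, 5.19% of all, by a median of 17 bases. Both queen-less workers reached farther out at 15541 edges, 26% of all, by a median of 32 bases. The crossed arrangements were as uneven, at 2633 and 14037 edges in the first and 21904 and 1491 in the second, and most of these shifts were under 147 bases. Larger shifts were more numerous between the castes than in either crossed arrangement, with 1811 edges shifted by 147 to under 500 bases, against 939 and 1399, and 1097 by 500 bases to under 1 kb, against 464 and 1026. Among shifts of at least 200 bases the castes gave 378 edges farther out in queens and 2321 farther out in queen-less workers, against 617 and 667 in the first crossed arrangement and 2003 and 249 in the second. Shifts of 1 kb and over numbered 235 between the castes (5 farther out in queens, 230 farther out in queen-less workers), against 86 (21 and 65) and 211 (204 and 7) in the crossed arrangements. Edge shifts were not particular to wide domains, since queens reached farther out at 6.46% of the edges of regions under 300 bases and at 3.42% of those of 5 kb and over, and queen-less workers at 22.3% and 28.8%.

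Long shared domains were followed for breaks. There were 1069 regions of at least 10 kb called in all 4 lists, together 20.7 Mb with a median width of 14.5 kb. The width was that of the merged region, so a wide peak in 1 list was enough to pass. Peaks of 10 kb and over numbered 467 and 284 in queens, against 431 and 924 in queen-less workers, and the values below for queen-less worker 2 are in part fixed by this choice of regions and are a description. A region held a mean of 3.58 peaks in queen 1 and 4.75 in queen 2, against 3.91 in queen-less worker 1 and 1.42 in queen-less worker 2. Queen-less worker 1 lay between the queens, and only queen-less worker 2 had its long domains mostly in one piece. The means were 4.17 ± 0.831 peaks in queens and 2.66 ± 1.76 in queen-less workers (SD, n = 2 each, exact permutation p = 0.667), and the difference was 0.229 peaks without queen-less worker 2. Peaks covered 87.0% and 79.5% of these regions in queens, against 84.3% and 97.8% in queen-less workers. A single peak held the whole domain in 11.1% and 4.12% of the regions in queens, against 8.33% and 69.6% in queen-less workers.

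The breaks inside these domains differed in number more than in size. There were 2756 and 4012 gaps between peaks in queens, against 3108 and 448 in queen-less workers, with median widths of 714 and 764.5 bases in queens, against 728 and 701 bases in queen-less workers. Both queens had more peaks than both queen-less workers in 252 regions (23.6%), and both queen-less workers had more in 3 (0.281%). The crossed arrangements gave 53 and 4 regions, and 2 and 377. More of the region was covered in both queens than in both queen-less workers in 2 regions (0.187%), and the other way in 363 (34%), beside 10 and 102, and 590 and 1, in the crossed arrangements.

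Named by the size of the difference, the region broken up most in queens was on scaffold NW_003382500.1 from 128 to 45527. It held 14 and 17 peaks in queens, against 10 and 1 in queen-less workers. Its coverage did not follow caste, at 64.0% and 53.2% in queens, against 16.8% and 100% in queen-less workers. The next was on NW_003377956.1 from 135873 to 165844, with 12 and 16 peaks in queens, against 8 and 1 in queen-less workers. In both regions queen-less worker 2 had a single peak. The other direction was milder. On NW_003378049.1 from 69989 to 85853 queens had 1 and 2 peaks, against 4 and 3 in queen-less workers. On NW_003378112.1 from 557090 to 574637 they had 3 and 4, against 9 and 2, and here the groups overlapped. Positions are counted from 1 on the scaffolds that the lists name, and the genome build is not given in the sources used here.

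By scaffold, the mark was denser on long scaffolds in all 4 lists. On the 64 scaffolds of 1 Mb and over, peaks covered 35.7% and 30.5% of the span in queens, against 33.6% and 43.4% in queen-less workers. On the 240 scaffolds of 100 kb to under 1 Mb they covered 22.3% and 18.6% in queens, against 20.9% and 27.7% in queen-less workers. On the 211 scaffolds of 10 kb to under 100 kb the groups did not overlap, with 6.76% and 5.41% in queens, against 7.22% and 10.1% in queen-less workers (difference -2.57 percentage points, pooled SD 1.58, exact permutation p = 0.333). The largest disagreement was on the 1319 scaffolds under 10 kb and lay within the queen-less workers. There the queens were alike, at 10.8% and 10.7%, against 5.47% in queen-less worker 1 and 30.8% in queen-less worker 2. Peaks were called on 540 and 515 of these short scaffolds in queens, against 227 and 1171 in queen-less workers. A scaffold entered only with a peak in any of the 6 lists, and its span ended at its last peak. The values for queen-less worker 2 on these short scaffolds are therefore in part fixed by this choice and are a description.

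**Figure D4:**
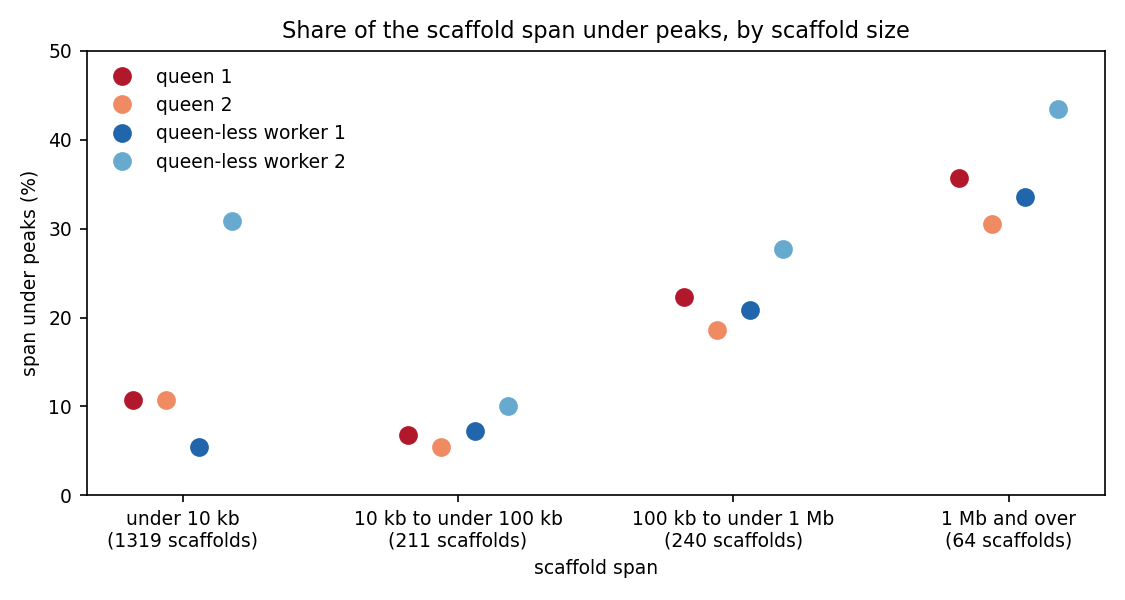
Percent of scaffold span under H3K27me3 peaks by scaffold span, which ends at the last peak in any of the 6 lists. Each point is 1 list, queens left of queen-less workers. On scaffolds under 10 kb the queens sit together at 10.8% and 10.7% between queen-less workers at 5.47% and 30.8%, and on scaffolds of 1 Mb and over all 4 lists lie between 30.5% and 43.4%.

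The percent of each scaffold under peaks was divided by the percent over all scaffolds of that list. This gives a relative share, with 1 as the list's own average. It evens out unequal total coverage only in part. No scaffold can be covered more than fully, so the highest possible share is lower in a list that covers more. Over the 304 scaffolds of at least 100 kb the shares of any pair of lists ran together, with Pearson r of 0.978 between the queen-less workers to 0.994 between the queens. That is a description over scaffolds that share 1 library per list. The relative share was higher in both queens than in both queen-less workers on 28 scaffolds (9.21%) and higher in both queen-less workers on 84 (27.6%). The crossed arrangements gave 38 and 26, and 77 and 45. Without the division, 0 scaffolds were higher in both queens and 81 in both queen-less workers. The crossed arrangements gave 14 and 2, and 199 and 2, on that scale. With each list cut to equal coverage the order turned, with 42 scaffolds higher in both queens and 34 in both queen-less workers. The crossed arrangements then gave 29 and 27, and 49 and 111.

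Scaffolds with a higher relative share in queens had, at the median, more of the mark than those with a higher relative share in queen-less workers, with exceptions on both sides. The mean share of the 4 lists was over 1 on 18 of the 28 scaffolds and on 16 of the 84. The median relative share over the 4 lists was 1.34 on the 28 scaffolds and 0.353 on the 84, against 0.684 over all 304. In the queen-right workers the median relative shares were 1.28 and 1.39 on the 28, and 0.383 and 0.380 on the 84. Their shares took no part in the choice, though their peaks helped to set the scaffold spans. Since the shares of the lists ran together over scaffolds, this likeness is a description and gives no information on caste. The crossed sets ran the same way in part, with medians of 0.264 and 0.936 in the first arrangement and 0.755 and 1.23 in the second. The differences were small in size, with a median of 0.0922 on the 28 and -0.0498 on the 84, queens minus queen-less workers.

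Among scaffolds of at least 500 kb, NW_003378080.1 differed most in favour of queens. Its relative share was 2.56 and 2.80 in queens, against 2.45 and 2.41 in queen-less workers, although the percent covered, 73.2% and 68.1% in queens, against 65.8% and 85.5% in queen-less workers, overlapped. NW_003378040.1 followed with 1.93 and 1.96 in queens, against 1.81 and 1.86 in queen-less workers, and NW_003377876.1 with 1.53 and 1.62, against 1.52 and 1.44. In the other direction NW_003378175.1 had 1.11 and 0.927 in queens, against 1.12 and 1.21 in queen-less workers. NW_003378035.1 had 1.22 and 1.13 in queens, against 1.33 and 1.30 in queen-less workers, and NW_003378076.1 had 1.23 and 1.19, against 1.26 and 1.41. The nearest lists of the castes differed by 0.108 on NW_003378080.1 and by 0.0128 to 0.0762 on the others.

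Regions called in 1 caste were scattered and not gathered on a few scaffolds. Of the 140 scaffolds of at least 500 kb, 91 held a region of queens alone and 138 held one of queen-less workers alone. The median number per scaffold was 1 for queens alone and 8 for queen-less workers alone. The highest share was on NW_003378135.1 for queens alone, with 2 of 112 regions, and on NW_003378186.1 for queen-less workers alone, with 12 of 91 (13.2%). NW_003378186.1 was poor in the mark, with 3.17% and 1.47% of its span covered in queens, against 3.96% and 4.05% in queen-less workers.

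The longest stretch of each kind was followed in single lists. The longest new stretch of queens alone was 797 bases, on NW_003378135.1 from 535928 to 536724, with peak scores of 19 and 23. The longest new stretch of queen-less workers alone was 3683 bases, on NW_003378174.1 from 348543 to 352225. It lay in the 1 region of 5 kb and over that both queen-less workers and neither queen had, 11378 bases from 344555 to 355932, which queen-less worker 1 held as 3 peaks over 69.5% of it and queen-less worker 2 as 2 peaks over 92.7% of it. The nearest region called in all 4 lists was 1566 bases away, and neither queen-right worker had a peak there. The same scaffold also held the widest region of queens alone, 1512 bases from 28936 to 30447, with 1 peak in queen 1 and 2 in queen 2.

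Extensions and filled gaps of 1 kb and over were read the same way. The longest extension in queens alone was 1050 bases on NW_003377862.1 from 389244 to 390293, with scores of 32 and 23, where each queen-less worker's peak in the region ended short of it. The longest extension in queen-less workers alone was 1758 bases on NW_003378187.1 from 51082 to 52839, with scores of 21 and 13. Each queen had 1 peak in that region, over 18.1% and 11.6% of it, and queen 1 had a further peak that ended just before the region. The longest gap filled in queens alone was 1216 bases on NW_003377938.1 from 1749926 to 1751141, with low scores of 15 and 17. The longest filled in queen-less workers alone was 2283 bases on NW_003378095.1 from 1459583 to 1461865. There the queens each had 2 peaks over 67.4% and 67.3% of the region, and the queen-less workers 1 peak each over 97.6% and 93.6%, with scores of 24 and 75. In all 6 of these stretches the queen-right workers covered 0% of the bases.

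**Figure D5:**
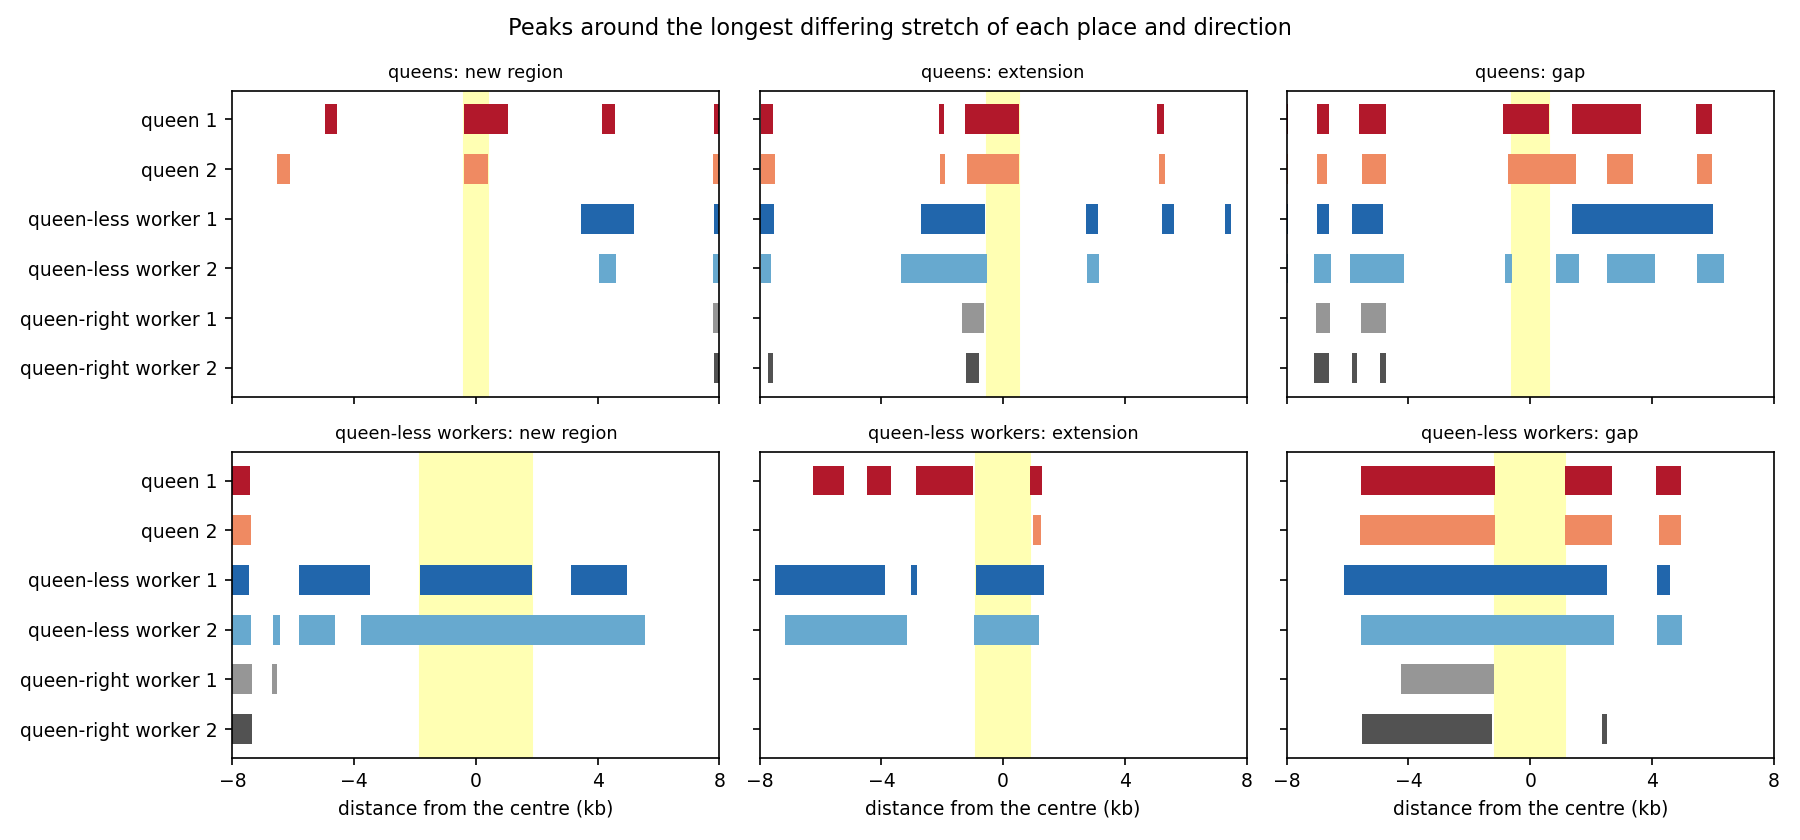
Peaks of each list (1 row per list, queens above queen-less workers and queen-right workers below) around the longest new, extension and gap stretch of each caste, against distance in kb from the centre of the stretch, which is shaded. In the gap panel of queen-less workers the queens' peaks stop on either side of the shaded 2283 bases that a single peak crosses in both queen-less workers.

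The queen-right worker lists, which were not used to find the regions, had calls in a smaller share of the regions of 1 caste than of the shared regions, a difference given without a test. Of the 238 regions of queens alone, 26 (10.9%) had a peak in both queen-right workers, 71 (29.8%) in 1 and 141 (59.2%) in neither. Of the 1755 regions of queen-less workers alone, 400 (22.8%) had a peak in both, 670 (38.2%) in 1 and 685 (39.0%) in neither. Of regions called in all 4 lists, 86.7% had a peak in both. Of all 52476 merged regions, 61.9% had a peak in both, 17.4% in 1 and 20.6% in neither. Crossed sets had both calls in 3.77% to 43.5% of their regions, a range wider than the gap between the castes. The queen-right lists differed from each other too, with peaks over 49.4% and 19.2% of the gap bases filled in queen-less workers alone and over 39.7% and 16.4% of those filled in queens alone. New bases of queens alone were covered at 20.6% and 19.3%, and those of queen-less workers alone at 43.8% and 23.2%, against 68.4% and 53.9% of all bases in the merged regions.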

How the data were processed

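H3K27me3 ChIP-seq had been run on whole ovaries. The submitters' processing notes name Bowtie 1.0, SAMtools 1.5, MACS2 and bedtools, and the deposited peak names give broad calls at 0.1 with an extension of 147 bases. The deposited lists hold, for each sample, peak positions and the score the authors' peak caller gave each peak, from 10 upward, with no read counts, so the depth and the precision it gives are unknown. A score ranks peaks within a list and grows with depth. The deposited queen lists carry the numbers 2 and 3 where the labels say queen 1 and queen 2, and the labels' numbers are used. The 4 lists were grouped by their labels and merged in Python 3.11.15 with NumPy 2.4.6 at an overlap of at least 1 base, and stretches, edges, scaffold shares and width classes were counted as described with the results. Two-sided exact permutation tests went over the 3 ways to divide 4 lists into pairs. The labels name biological duplicates, without saying whether these were separate colonies. The same code was tested on simulated data with planted regions. Named were the longest stretch of each place and direction, the 3 non-overlapping scaffolds of at least 500 kb with the largest difference in each direction, and the 2 long shared regions with the largest difference in peak number in each direction. A few further regions and counts of 5 or fewer were named after their values were seen, as were the widest regions of 1 caste and the scaffolds with the highest share. The groups, tests and classes were chosen with earlier results of these data known. Alternatives changed the score minimum, the coverage, list length, joining of peaks, narrow peaks, the overlap, bins and each list left out. Genes and sequence were not analysed here, since no chromosome name of the gene table at hand matched a scaffold.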

Additional observations from a re-analysis of the deposited data

How the results depend on the processing

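Of 154 alternative values over 16 results, 71 stayed within 1.5 times the reported count or within 1 SD of the reported difference and 83 did not. The replicate block, counted once for each result, cannot change a value, so it is among the 71 by construction. With each list cut to 53.5 Mb of top-scoring peaks, queens alone and queen-less workers alone then had 3007 and 166 regions, 1160905 and 45784 new bases, 884655 and 965407 extension bases, and 1534 and 8441 edges. There were 272907 and 1442022 gap bases and 325 and 240 stretches of 1 kb and over. A higher relative share was found on 42 scaffolds in queens and on 34 in queen-less workers. With peaks of at least 500 bases there were 173497 and 983570 new bases, 82954 and 1399030 gap bases, 50 and 877 stretches of 1 kb and over, and 1419 and 8298 edges. Joining peaks closer than 1 kb gave 136 and 1802 such stretches, and in queen-less workers alone 1043 regions, 278327 new bases and 10080 edges. A minimum score of 20 and equal list lengths gave 10 and 9 stretches of 1 kb and over in queens alone, and this result and its alternatives were added after the data had been seen. Counting a region as called at 50% coverage gave 444 and 3031 regions, bins of 1 kb gave 529 and 4500, and a shift of at least 200 bases gave 378 and 2321 edges. Among scaffolds of at least 500 kb, 15 had a higher relative share in queens and 33 in queen-less workers. Without division by the list total 0 scaffolds were higher in queens.

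A call needs only 1 list of a pair once the other is left out, so these counts rise by construction. They ran from 511 to 4576 regions, 145707 to 1418820 new bases, 507942 to 2857088 extension bases, 285140 to 2061948 gap bases, 29 to 461 stretches of 1 kb and over, 5336 to 30738 edges and 59 to 79 scaffolds in queens alone. In queen-less workers alone they ran from 2316 to 8014 regions, 634114 to 2632696 new bases, 2469785 to 7083548 extension bases, 2256765 to 6304317 gap bases, 477 to 2056 stretches, 20834 to 49307 edges and 104 to 152 scaffolds. The ends of these ranges came from leaving out queen 2 or either queen-less worker. Without queen-less worker 2, queens alone held 4576 regions and queen-less workers alone 4405. The difference in bases under peaks of 5 kb and over ran from -16.3 to -1.01 Mb and that in peaks per long region from 0.229 to 2.73.

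Replicate numbers give only a name here: deviations of samples with the same number had a correlation of -0.0462 over 133983 bins of 1 kb, and with the replicate block the counts stayed at 238 and 1755 regions by construction, with a smallest exact p of 0.5. The lists give no depth, so whether queen-less worker 2 was sequenced more deeply was not tested.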
